A study of Homo sapiens with 4 samples.

Results

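The genes described here are those whose symbol is ZNF followed by a number, the symbol given to human zinc finger genes without a more specific name. They were chosen by name in the 2 deposited lists of m7G peaks, with no measured value. A total of 58 such genes had a peak in either list, of 3769 genes in all. They were 31 of 2511 genes in replicate 1 and 51 of 3205 genes in replicate 2, with 51 and 98 peaks. The lists come from 2 m7G immunoprecipitation (IP) samples of untreated HepG2, a human hepatocellular carcinoma cell line. An antibody against N7-methylguanosine (m7G) was used on poly(A) RNA, and 2 input samples were sequenced without antibody. All 4 samples share the cell line, the growth medium and the poly(A) selection. Whether the replicates came from separate cultures is not stated in the labels.

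Most ZNF genes encode proteins with an array of C2H2 zinc fingers, small folds in which cysteines and histidines hold a zinc ion and which bind DNA or, in some members, RNA. Many carry a KRAB domain as well, through which they recruit the corepressor TRIM28, and many of these genes lie in clusters on chromosome 19. The whole finger array is typically encoded by 1 long last exon. N7-methylguanosine is known as the cap of mRNA and also occurs inside RNAs, and an antibody against it can bind either.

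A peak is a stretch of mRNA that the authors called as enriched, with the authors' own p-value and fold enrichment for that list. Read depth is unknown from the lists, expression was not measured in them, and an absent peak does not separate an unmethylated from an unexpressed gene. ZNF genes and other genes are paired within each list, but with 2 lists the smallest two-sided p that an exact permutation test allows is 0.5, so no test over lists is given. Values are therefore given per list, with 95% Wilson intervals for shares, which cover counting error only and treat the peaks of a gene as independent. Of 17 hepatocyte marker genes, 8 had a peak in each list, APOA1 and APOB among them, and the same 8 in both. ALB, AFP, TTR and HNF4A were among the markers without one. Of all coding genes, 12.5% had a peak in replicate 1 and 15.9% in replicate 2.

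A smaller share of ZNF genes than of other coding genes carried a peak, and the gap was widest on chromosome 19 among the 3 chromosomes with most ZNF genes. RefSeq annotates 517 ZNF genes as protein-coding, of which 31 (6.0%, 95% Wilson interval 4.26 to 8.39%) had a peak in replicate 1 and 51 (9.86%, 7.58 to 12.7%) in replicate 2. Among all coding genes the shares were 12.5% and 15.9%. In either list it was 58 ZNF genes (11.2%, 8.78 to 14.2%), against 18.9% of other coding genes (18.4 to 19.5%) and 18.7% of all coding genes. Chromosome 19 held 250 of the 517 ZNF genes, and 16 of these had a peak (6.4%, 3.98 to 10.1%), whereas 365 of the 1201 other coding genes on chromosome 19 had one (30.4%, 27.9 to 33.1%). On the other chromosomes the shares lay closer together, 42 of 267 ZNF genes (15.7%, 11.9 to 20.6%) and 3336 of 18338 other genes (18.2%, 17.6 to 18.8%). On chromosome 16, 10 of 30 ZNF genes had a peak (33.3%), against 30.1% of other genes there, and on chromosome 7 it was 7 of 35 (20%), against 19.6%. Of the 17 ZNF genes on chromosome 10, the 13 on chromosome 5, the 12 on chromosome X, the 11 on chromosome 17 and the 8 on chromosome 4, 0 had a peak. These chromosomes are named for that count, and the share of other genes on them was not taken. With so few ZNF genes on each, and 11.2% of ZNF genes with a peak in all, no difference is read from these counts.

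**Figure D1:**
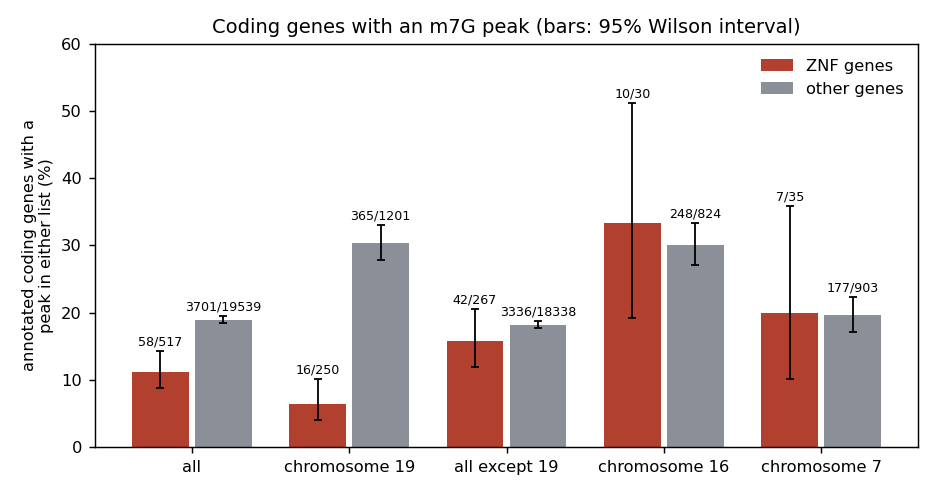
Share of annotated coding genes with an m7G peak in either list (%, y axis), for ZNF genes (red) and other genes (grey), by chromosome, with 95% Wilson intervals and the counts above the bars. The bar of ZNF genes on chromosome 19 stands at 6.4%, below the 30.4% of other genes on that chromosome, and the pairs for chromosomes 16 and 7 lie at similar heights.

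Along chromosome 19, ZNF genes with a peak were counted in stretches of 5 Mb, beside 6.4% of the ZNF genes of the whole chromosome. Between 20 and 25 Mb, 0 of 31 ZNF genes had a peak, and 0 of the only 2 other coding genes there. Between 35 and 40 Mb it was 0 of 27 ZNF genes, against 26 of 124 other genes. Between 50 and 55 Mb it was 1 of 42 ZNF genes (ZNF331, a KRAB gene), against 7 of 114 other genes (6.14%), so peaks were few in both groups there. Between 55 and 60 Mb it was 8 of 60 ZNF genes (13.3%), against 20 of 75 other genes (26.7%). These 8 were ZNF628, ZNF579, ZNF524, ZNF865, ZNF581, ZNF580, ZNF787 and ZNF444. Between 40 and 45 Mb it was 3 of 27 ZNF genes, against 30.3% of other genes. It was 2 of 16 between 5 and 10 Mb (23.6% of other genes) and 1 of 26 between 10 and 15 Mb (34.9%). Between 45 and 50 Mb it was 1 of 3 (37.8%). No ZNF gene of the remaining stretches had a peak. With so few genes in each stretch, no uneven spread is read from these counts. Of the 58 ZNF genes with a peak, 16 started within 100 kb of another. Among them were ZNF205 and ZNF213 as well as ZNF768, ZNF747 and ZNF764 on chromosome 16, and ZNF777 and ZNF746 on chromosome 7. The same share was not taken for all coding ZNF genes, so no clustering of genes with peaks is read from this count. The spans of ZNF580 and ZNF581 overlap. The ZNF580 peaks lie in both spans, so the gene to which their reads belong is uncertain, while the ZNF581 peaks lie outside the ZNF580 span. The spans of ZNF747 and ZNF768 overlap as well, but no peak of either gene lies in the shared part. ZNF genes with a peak had a median span of 12754 nt, against 25032 nt for those without. Among other genes the medians were 25455 nt with a peak and 23738 nt without.

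In both lists 24 ZNF genes had peaks, which was 41.4% of the 58 (95% Wilson interval 29.6 to 54.2%), against 51.8% of other genes (50.2 to 53.4%) and 51.7% of all genes. They made up 77.4% of the replicate 1 ZNF genes and 47.1% of the replicate 2 ZNF genes. The corresponding shares of other genes were 77.5% and 61.0%. Another 27 ZNF genes had peaks in replicate 2 only and 7 in replicate 1 only. When each list was limited to the 50% of peaks that had the smallest p, the share in both lists was 51.6% for ZNF genes and 50.1% for other genes, which turned the direction of the difference.

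All 24 ZNF genes with peaks in both lists had at least 1 shared site, that is, peaks that overlap by at least 50% of the shorter peak. Of the other genes with peaks in both lists, 87.6% had one. By peaks, 35 of 51 ZNF peaks of replicate 1 were shared (68.6%, 55.0 to 79.7%; 65.1% of all peaks) and 33 of 98 of replicate 2 (33.7%, 25.1 to 43.5%; 45.4% of all peaks). Short peaks were shared less often than long ones, in ZNF genes and in other genes. Of ZNF peaks of 100 nt or less, 4 of 11 were shared in replicate 1 (36.4%) and 2 of 29 in replicate 2 (6.90%), against 38.3% and 17.1% of such peaks of other genes. Of ZNF peaks over 300 nt, 6 of 6 and 10 of 14 (71.4%) were shared, against 98.3% and 90.2%. Matched one to one there were 33 shared sites. The folds of 21 of them lay within 1.5 times of each other (63.6%, 46.6 to 77.8%; 72.7% of the sites of other genes), and 3 differed by more than 2 times, in ZNF205 (8.90 in replicate 1 and 3.8 in replicate 2), ZNF362 and ZNF639. Across the 33 sites the folds of the lists ranked together with Spearman's rho = 0.67, against 0.80 for other genes. This is a description with no p, since several sites share a gene and all share the cell line.

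**Figure D2:**
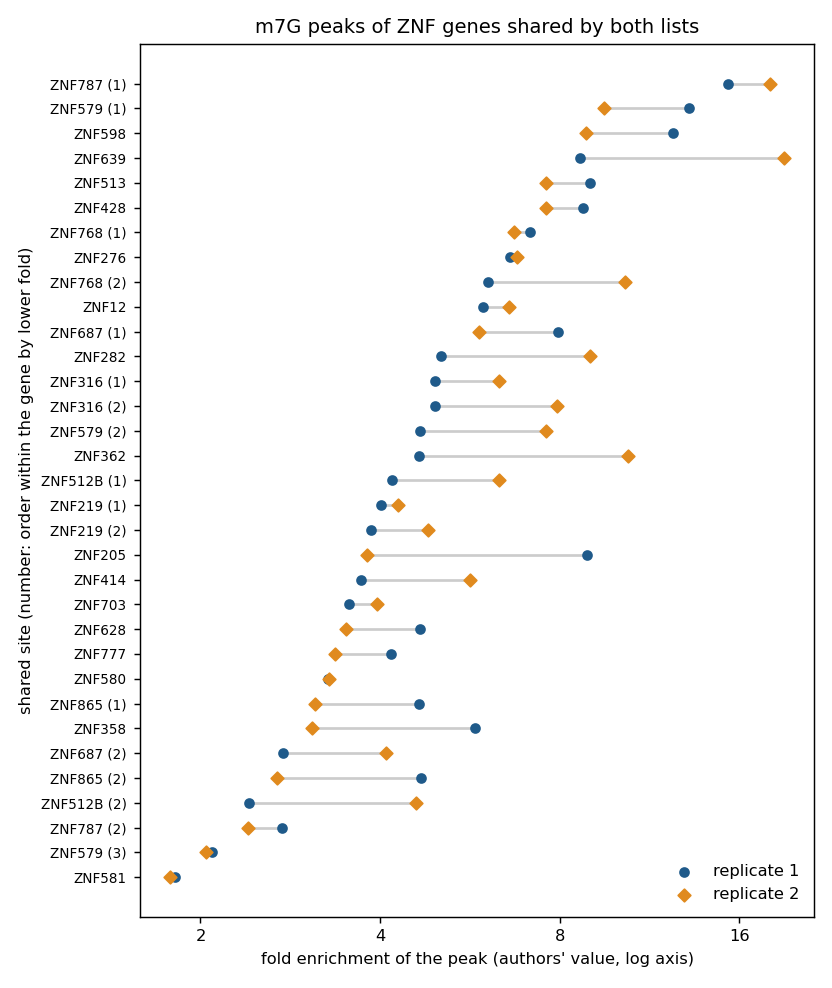
Fold enrichment (x axis, log scale, the authors' values) of the 33 sites of ZNF genes shared by both lists, with replicate 1 as circles and replicate 2 as diamonds, ordered by the lower fold. ZNF787 stands at the top with 15.3 and 18.0, and ZNF581 at the bottom with 1.81 and 1.78; the longest connecting lines belong to ZNF205, ZNF362 and ZNF639.

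The strongest ZNF site lay in ZNF787 on chromosome 19, from 56087749 to 56088551 (GRCh38) on the minus strand, an unspliced peak of 803 nt with identical ends in both lists. Its fold was 15.3 in replicate 1 and 18.0 in replicate 2 (mean 16.7 ± 1.91, SD, n = 2). With -log10 p of 110 and 117 it ranked 41 of 3355 and 29 of 4747 peaks by p. Its midpoint was 784 nt from the 3' end of the gene. The same gene had a second site with identical ends, spliced over 3 blocks and reaching the gene's start, with low folds of 2.74 and 2.40. The 2 sites of this mRNA thus differed in fold more than the lists did.

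ZNF579, also on chromosome 19, had 3 shared sites within the last 3000 nt of the gene. Their folds were 13.2 and 9.49 at the site from 55578416, 4.67 and 7.59 at the site from 55579009, and 2.09 and 2.04 at the site from 55579336, each in replicates 1 and 2. The order of the 3 sites was the same in both lists.

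ZNF598, a ubiquitin ligase that recognises collided ribosomes, had folds of 12.4 and 8.86 at a site on chromosome 16 whose midpoint lay 120 and 150 nt from the gene's 5' end. It counts as spliced, but its 3 blocks are 1 nt apart, so no intron is seen in it. ZNF513, linked to retinitis pigmentosa, had folds of 9.01 and 7.59 at a site 110 and 155 nt from the 5' end. Measured by the midpoint of the peak, ZNF598 and ZNF513 held the only ZNF sites up to 200 nt from the 5' end of the span in both lists. The spliced site of ZNF787 reaches its start but has its midpoint farther in. A site of ZNF768 covers a start listed in RefSeq that lies inside the span, and so is not counted here. ZNF639 on chromosome 3 had folds of 8.66 and 19 at a site 340 and 325 nt from the 5' end, which was 151 nt long in replicate 1 and 241 nt and spliced in replicate 2. Its fold was more than 2 times higher in replicate 2.

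Near the 3' end, ZNF428 had folds of 8.77 and 7.59 at a site of 327 and 386 nt, 519 and 579 nt from the end. ZNF768, which binds sequences derived from MIR repeats, had 2 shared sites. That from 30526352, which covers a listed start, had folds of 7.14 and 6.71 with -log10 p of 28.3 and 20.7. That near the 3' end had folds of 6.07 and 10.3 and lengths of 238 and 565 nt. ZNF687 and ZNF592 encode partners in a chromatin complex with ZMYND8. ZNF687 had folds of 7.95 and 5.87 at its stronger site and 2.75 and 4.09 at its weaker one, so its sites kept their order. ZNF276 had folds of 6.60 and 6.78, and ZNF12, a KRAB repressor, 5.94 and 6.58. These values lay close together in the 2 lists.

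ZNF282, a KRAB repressor, had folds of 5.06 and 8.99, and ZNF316 had 4.95 and 7.91 at one shared site and 4.95 and 6.33 at the other. A further ZNF316 peak of replicate 2, on chromosome 7 from 6642422, had a fold of 25.3, with no peak at that place in replicate 1. ZNF362 had folds of 4.64 and 10.4, ZNF219 4.02 and 4.29, and ZNF703, a corepressor known from luminal breast cancer, 3.55 and 3.95. Of these, ZNF219 and ZNF703 differed least between the lists.

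Ordered by the higher of their 2 folds, the weakest shared sites were those of ZNF581 (1.81 and 1.78), the weak sites of ZNF579 and ZNF787 given above, and those of ZNF580 and ZNF703. ZNF580, whose span overlaps that of ZNF581, had folds of 3.27 and 3.28. This ZNF580 peak was long, 418 and 388 nt, and had -log10 p of 21.2 and 22.7, so a low fold did not go with a weak p there.

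ZNF genes with a peak had more peaks per gene than other genes. The mean was 1.65 in replicate 1 and 1.92 in replicate 2 for ZNF genes (1.78 ± 0.195, SD, n = 2), against 1.33 and 1.47 for other genes (1.40 ± 0.10). More than 1 peak was found in 13 of 31 ZNF genes in replicate 1 (41.9%; 23.9% of all genes) and in 25 of 51 in replicate 2 (49%; 30.2% of all genes). At least 3 peaks were found in 22.6% and 27.5% of ZNF genes, against 6.61% and 10.7% of other genes. The same was seen elsewhere: other genes on chromosome 19 had 1.67 and 1.89 peaks per gene, and the 27 genes of other zinc finger families by name (ZBTB, KLF, ZFP, ZSCAN and ZKSCAN) had 2.0 and 1.92. The higher number is thus not shown to be particular to ZNF genes.

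**Figure D3:**
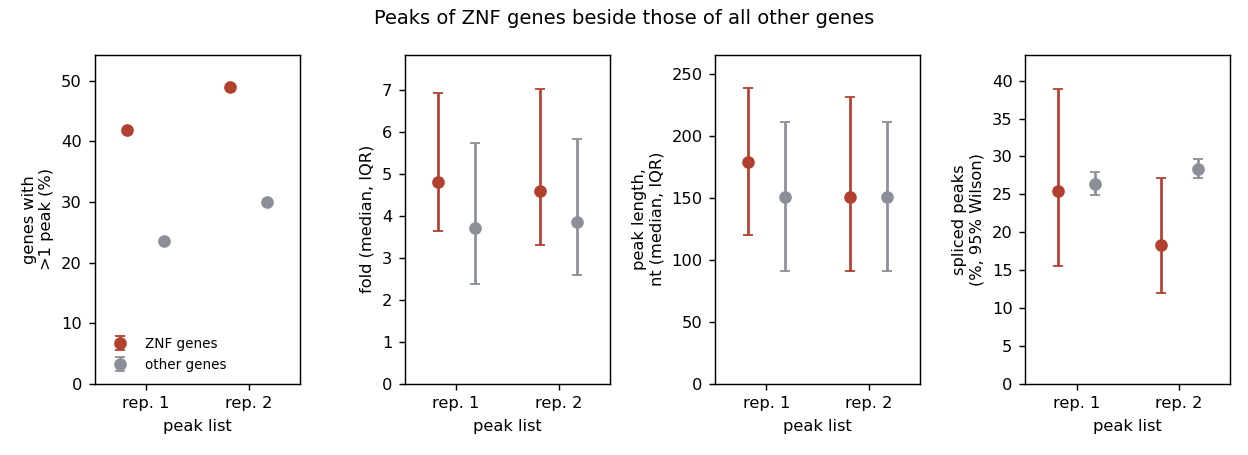
Genes with more than 1 peak (%), fold (median and interquartile range), peak length in nt (median and interquartile range) and spliced peaks (%, with 95% Wilson interval), for ZNF genes (red) and all other genes (grey) in each list. ZNF genes stand above other genes in the share with more than 1 peak and in median fold in both lists; the ranges of fold and length overlap.

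The folds of ZNF peaks were higher by median. In replicate 1 the median was 4.80 for ZNF peaks, with quartiles of 3.63 and 6.94, against 3.71 for other peaks, with quartiles of 2.38 and 5.74. In replicate 2 it was 4.60 for ZNF peaks (quartiles 3.31 and 7.03), against 3.85 for other peaks (2.60 and 5.84). Over the lists this was 4.70 ± 0.145 and 3.78 ± 0.099 (SD, n = 2). The difference was larger than the spread between lists, while the ranges of single peaks overlapped widely. Among the 50% of peaks with the smallest p the difference was 1.60. Against the other zinc finger families, whose medians were 3.87 and 4.86, it was 0.335 as the mean of the lists, and its direction turned in replicate 2. By the highest fold of each gene, the medians were 5.94 and 5.87 for ZNF genes and 5.995 and 6.83 for these families. The higher fold is thus not shown to be particular to ZNF genes. The median -log10 p did not follow: it was 5.86 and 4.88 for ZNF peaks and 5.50 and 5.10 for other peaks, so the sign of the difference changed between the lists.

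The median ZNF peak was 179 nt long in replicate 1 and 151 nt in replicate 2, against 151 nt in both lists for other genes. Other genes on chromosome 19 had a median of 179 nt in both lists, which turns the direction of the difference, as did adding genes with an older ZNF symbol (-0.25 nt). Lengths of ZNF peaks ran from 60 to 803 nt. In replicate 1, 13 of 51 ZNF peaks (25.5%, 15.5 to 38.9%; 26.4% of all peaks) joined more than 1 block, and in replicate 2, 18 of 98 (18.4%, 11.9 to 27.2%; 28.2% of all peaks). In replicate 2 the interval lay below the share of all peaks, and in replicate 1 it included it. On chromosome 19, other genes had 36.5% and 37.5% spliced peaks, and the other zinc finger families 15.6% and 10.9%. With gaps of at least 20 nt required between blocks, the shares were 20.4% for ZNF peaks and 27.4% for other peaks (means of the lists). Shared sites of more than 1 block in both lists lay in ZNF598, ZNF219 (3.86 and 4.81, over 3 blocks), ZNF580 and ZNF358 (5.77 and 3.07). The weaker site of ZNF787 was another. In ZNF598 the blocks are 1 nt apart, so no intron is seen there. The longest ZNF sites after ZNF787 were in ZNF414, where a peak of 150 nt in replicate 1 lay in one of 569 nt and 4 blocks in replicate 2, and in ZNF768.

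By midpoint, ZNF peaks lay near the 3' end of the gene span more often than other peaks. The midpoint was within 3000 nt of the 3' end of the span for 35 of 51 ZNF peaks in replicate 1 (68.6%, 55.0 to 79.7%) and 59 of 98 in replicate 2 (60.2%, 50.3 to 69.3%), against 34.7% and 34.9% of the peaks of other genes. The window of 3000 nt was chosen after the values were seen. The median distance was 1848 and 2250 nt for ZNF peaks and 7229 and 7070 nt for other peaks. Distances are genomic and include introns, and ZNF genes with peaks are short. In a short gene the window of 3000 nt can therefore also hold peaks at a start. It holds the ZNF768 site that covers a listed start, 2467 and 2452 nt from the 3' end. It also holds any peak of ZNF580, whose span is 2469 nt. With both groups limited to spans of 5 to 25 kb, the shares were 66.0% for ZNF peaks and 39.0% for other peaks (means of the lists). Against other genes on chromosome 19, whose shares were 45.7% and 45.5%, the difference was 18.8 percentage points. Within the last 200 nt ZNF and other peaks differed little: 2 of 51 ZNF peaks (3.92%; 3.52% of all peaks) and 4 of 98 (4.08%; 3.46% of all peaks) lay there.

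**Figure D4:**
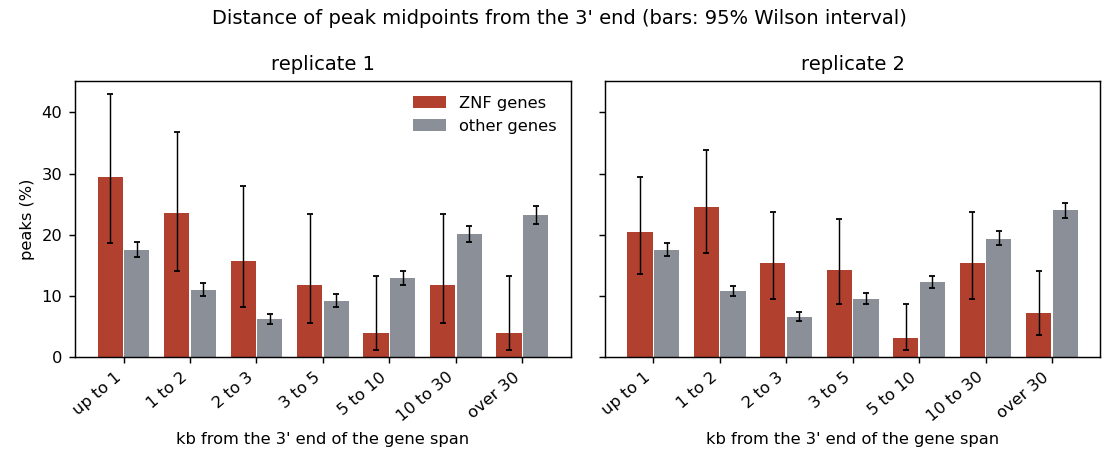
Share of peaks (%, y axis) by the distance of the midpoint from the 3' end of the gene span (kb, x axis), for ZNF genes (red) and other genes (grey) in each list, with 95% Wilson intervals. In replicate 1, 29.4% of ZNF peaks lie up to 1 kb from the end and 3.92% over 30 kb; for other genes these shares are 17.5% and 23.2%.

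In several of the genes with most peaks, separate peaks lay within a few kb of the 3' end. Those of ZNF316, 3 and 4 in number, lay farther in, 4680 to 20409 nt from it. ZNF865, on chromosome 19, had 3 and 5 peaks, all unspliced, in 6 separate stretches over 3540 nt from 55613593 to 55617132. Its folds ran from 2.48 to 7.59, and 212 of the 1536 nt covered in either list were covered in both. ZNF579 had 3 and 4 peaks in 4 stretches over 1426 nt, and here 537 of 864 nt were covered in both. ZNF512B had 3 and 4 peaks in 5 stretches over 2094 nt, with 152 of 903 nt in both. ZNF219, a transcription factor that works with SOX9, had 3 and 5 peaks with folds of 1.47 to 4.81. ZNF628 had 2 and 4 peaks, and its 5 unspliced peaks had 0 nt in common between the lists, its shared site being spliced in replicate 1. The overlap between the lists thus ranged widely from gene to gene.

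**Figure D5:**
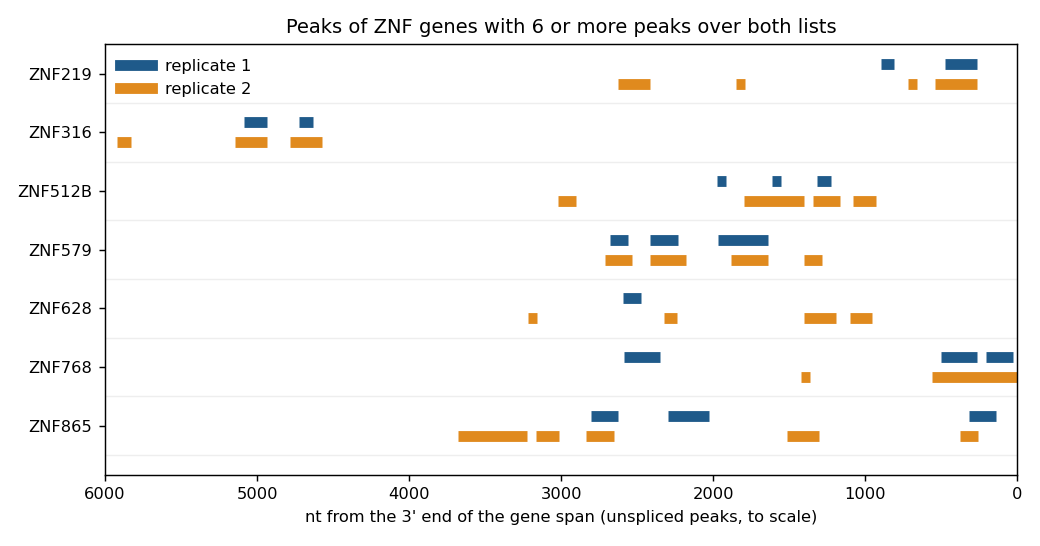
Unspliced peaks of the ZNF genes with 6 or more peaks over both lists, drawn to scale by distance from the 3' end of the gene span (nt, x axis; the 3' end is at the right), with replicate 1 above and replicate 2 below. The peaks of ZNF579 stack between the lists, those of ZNF628 do not; 1 peak of ZNF316, 15752 nt from the end, is off the axis.

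Peaks at the 5' end were fewer in ZNF genes. Counting midpoints up to 200 nt from the span's 5' end, or beyond it, there were 3 of 51 ZNF peaks in replicate 1 (5.88%, 2.02 to 15.9%; 27.4% of all peaks) and 10 of 98 in replicate 2 (10.2%, 5.64 to 17.8%; 21.7% of all peaks). The shares of other genes on chromosome 19, 17.8% and 11.5%, and of the other zinc finger families, 12.5% and 4.35%, were also below those of all genes. A gene can have several starts. Counting any start listed for the gene in RefSeq, 5 of 46 ZNF peaks (10.9%, 4.73 to 23.0%) and 10 of 79 (12.7%, 7.02 to 21.8%) were within 200 nt, against 31.1% and 24.2% of other peaks. This count holds only peaks of genes with a promoter entry. It leaves out ZNF703 and ZNF746, which each had a replicate 2 peak in the count by span, so the 2 counts are of different peaks.

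In 4 ZNF genes peaks of both lists reached within 30 bases of a listed start, and covered it in ZNF768 and ZNF787. The sequences there show how far the peaks reach. Each runs 5' to 3' from 50 bases before to 30 bases after the start (RefSeq, GRCh38.p14), in lower case, with the bases inside the peaks of both lists in capitals.
ZNF768, chr16:30526537-30526616, minus strand: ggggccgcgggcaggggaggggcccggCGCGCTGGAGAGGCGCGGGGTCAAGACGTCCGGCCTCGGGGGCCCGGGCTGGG
ZNF787, chr19:56121266-56121345, minus strand: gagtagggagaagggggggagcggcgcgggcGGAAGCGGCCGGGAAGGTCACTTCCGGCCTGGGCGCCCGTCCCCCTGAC
ZNF358, chr19:7516053-7516132, plus strand: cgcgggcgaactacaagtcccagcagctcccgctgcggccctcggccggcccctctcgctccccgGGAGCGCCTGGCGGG
ZNF580, chr19:55640952-55641031, plus strand: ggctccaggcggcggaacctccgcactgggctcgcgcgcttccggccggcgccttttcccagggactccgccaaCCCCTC
In ZNF768 and ZNF787 the peaks began 23 and 19 bases before the listed start and so covered the first base of the listed transcript. In ZNF358 and ZNF580 they began at base 16 and base 25 after it. The folds at these peaks in replicates 1 and 2 were 7.14 and 6.71 for ZNF768, 2.74 and 2.40 for ZNF787, 5.77 and 3.07 for ZNF358 and 3.27 and 3.28 for ZNF580.

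These 4 starts are rich in G and C, and so were the starts of peak-bearing genes in general. In the window of 250 bases before to 50 after the start, GC content was 81.7% for ZNF768, 75% for ZNF787, 76.3% for ZNF358 and 70.7% for ZNF580. A promoter entry existed for 50 of the 58 ZNF genes with a peak; ZNF385A, ZNF512B, ZNF524, ZNF696, ZNF703, ZNF710, ZNF746 and ZNF777 had none. The median GC content was 68.3% over these 50 and 60.3% over 387 ZNF genes without a peak. For other coding genes the medians were 68.7% with a peak and 61.0% without, so the medians of ZNF genes and other genes lay close together in both classes. The GC box GGGCGG, read on both strands, stood in 74.0% of the windows of ZNF genes with a peak (60.4 to 84.1%), in 62.8% of those of ZNF genes without (57.9 to 67.5%), in 78.9% of those of other genes with a peak and in 58.3% of all windows. A match describes only the letters of a window.

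By known role, peaks were found in 1 of 14 listed KRAB repressors, namely ZNF282, with peaks in both lists; ZNF10, ZNF91 and ZNF274 were among those with none. This count does not give the share among KRAB genes: the list is a selection, and other ZNF genes with peaks, such as ZNF12, ZNF74, ZNF205, ZNF213, ZNF331, ZNF746, ZNF747, ZNF764 and ZNF777, also carry KRAB domains. Of 17 genes listed as other sequence-specific factors, 6 had one (ZNF219, ZNF281, ZNF362, ZNF384, ZNF516 and ZNF703), 3 of them in both lists. ZNF143, ZNF148 and ZNF217 had none. The label of this list is loose, as ZNF263 also carries a KRAB domain and ZNF703 is the corepressor named above. Of 12 genes of ribosome, translation and RNA handling, 4 had one. ZNF598 had it in both lists, ZNF106, an RNA-binding protein, in replicate 1 only (5.94), and ZNF318 (4.52) and ZNF385A (up to 6.83) in replicate 2 only, whereas ZNF622, a factor of ribosome maturation, had none. Of the 3 genes of the complex with ZMYND8, ZNF687 had peaks in both lists and ZNF592 in replicate 2, with 0 peaks in ZNF532. These small lists, set beside the 11.2% of all coding ZNF genes, are counts without a test.

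Of the 34 ZNF genes found in 1 list, 25 had a single peak (73.5%, 56.9 to 85.4%), against 87.2% of the other genes found in 1 list (85.6 to 88.7%). The best -log10 p of these 34 ZNF genes reached 11 at most (ZNF385A). Among the 24 genes in both lists it reached 117 in ZNF787 and 28.3 in ZNF768, the next highest. The groups overlapped, since genes in both lists such as ZNF628 (7.12), ZNF581 (5.95) and ZNF777 (5.9) stayed below 11. The highest folds among the 34 genes found in 1 list were 37.1 for ZNF70 in replicate 1 and 22.1 for ZNF592 in replicate 2. Next were 19 for ZNF74, a KRAB gene, in replicate 2 and 16.7 for ZNF213 in replicate 1. ZNF746, a repressor also called PARIS, had 3 peaks in replicate 2 with a fold of up to 14.8, and ZNF644, a partner of the histone methyltransferases G9a and GLP, had 1 with a fold of 7.59. The peak of ZNF70 was 61 nt long with a -log10 p of 4.08, and ranked 8 by fold and 2517 by p in its list, so the height of its fold did not go with a strong p. Its fold is 5 times the commonest fold of replicate 1, 7.42, which occurs at 107 peaks. The fold of 19 of ZNF74 and of ZNF639 and the 25.3 of ZNF316 are 3, 3 and 4 times the commonest fold of replicate 2, 6.33, at 196 peaks. Multiples of at least 2 times, within rounding, made up 1.96% of ZNF peaks in replicate 1 and 4.08% in replicate 2, against 1.97% and 2.77% of other peaks. With peaks at the commonest fold itself included, the shares were 5.88% and 8.16% of ZNF peaks and 5.15% and 6.90% of other peaks. With all of these left out, the median fold of ZNF peaks was 4.59 and that of other peaks 3.62 (means of the lists).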

How the data were processed

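The labels give 2 input and 2 IP samples. Per the labels' protocols, poly(A) RNA was made into stranded libraries; per the submitters' processing notes STAR and GRCh38 were used. For the peak caller and the read numbers, the sources used here give nothing. The authors deposited 1 peak list per IP sample. Per the file headers these hold a p-value, the log10 p and log10 FDR (used as scores), a fold (a ratio whose libraries are not named) and blocks per peak. The weakest deposited FDR had a -log10 of 1.32.

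ZNF genes were taken by name; all matched a RefSeq symbol (GRCh38.p14), which gave gene spans; 3 and 8 peaks of other genes matched none. Exons, UTRs and proteins were not used here, so the planned description of ZNF proteins was not made. Sites were shared at an overlap of 50% of the shorter peak. The members and lists were chosen with earlier results of these data known. Genes named have the highest or lowest folds, most peaks, longest, spliced or end sites, the highest folds in 1 list, or a place in a role list; others named were chosen after their values were seen. Overlap and position were tested on simulated data. Alternatives were stricter peak sets, each list alone, other overlaps, windows, members and comparison genes. Scripts ran under Python 3.11.15 with pandas 2.3.3, numpy 2.4.6, matplotlib 3.10.9 and scipy 1.17.1.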

Additional observations from a re-analysis of the deposited data

How the results depend on the processing

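Values are ZNF minus other genes, as means of the lists. The settings on span, on any listed start, on gaps between blocks, on recurring folds and the window of 3000 nt were chosen after seeing the data. Peaks per gene differed by 0.38, by 0.257 with each list limited to the 50% of peaks of smallest p, by 0.0079 against other genes on chromosome 19 and by -0.175 against other zinc finger families. Median length differed by 14 nt, by -0.25 nt with 48 genes of an older ZNF symbol added and by -14 nt against chromosome 19; without one replicate it was 0 to 28 nt. The spliced share differed by -5.48 percentage points, by -15.1 against chromosome 19 and by 8.68 against other families, and by -10.0 to -0.932 without one replicate. Median fold differed by 0.917, by 1.60 for the smallest p, 0.615 for folds of at least 2, 1.245 against chromosome 19, 0.335 against other families, 1.485 for the highest fold of each gene, 1.29 for spans of 5 to 25 kb and 0.745 to 1.09 without one replicate. The shared share differed by -4.18 percentage points, by 0.036 for folds of at least 2 and by -12.0 to 3.62 without one replicate. The 5' share differed by -16.8, by -6.62 against chromosome 19, -0.381 against other families and -21.9 to -11.7 without one replicate. The share in the last 200 nt differed by 0.521, by -2.21 for the smallest p, 1.33 for folds of at least 2, -0.305 with older symbols, -2.20 against chromosome 19, 1.83 against other families, 7.38 in a window of 1000 nt and 0.407 to 0.634 without one replicate. The share in the last 3000 nt differed by 29.6, by 17.0 with older symbols, 18.8 against chromosome 19, 23.0 against other families and 25.3 to 33.9 without one replicate. Genes in both lists differed by -10.4 and by 1.54 for the smallest p. The cause was not tested. No paired analysis was possible because values exist for the IP group alone, so the replicate numbers of IP and input could not serve as a block. The differences within each list are the values without one replicate. Genes in both lists cannot be counted from 1 list. The read depth behind the peaks is not known here, so what it limits was not tested.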
